A study of Mus musculus with 6 samples.

Results

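The genes described here are the mitochondrially encoded subunits of complex I and complex IV of the respiratory chain. They were chosen by name: 7 subunits of complex I (mt-Nd1, mt-Nd2, mt-Nd3, mt-Nd4, mt-Nd4l, mt-Nd5 and mt-Nd6) and 3 subunits of complex IV (mt-Co1, mt-Co2 and mt-Co3). All 10 were found among the 26567 genes that the transcripts in the files could be paired with, and all 10 passed the filter on low counts. The RNA came from C57BL/6 mice at embryonic day 18.5, from cells sorted by flow cytometry as cap mesenchyme, the nephron progenitor tissue around the ureteric tips of the kidney. The 3 libraries called Dnmt1 KO carried the genotype Dnmt1 -/-, and the 3 called Dnmt1 HET carried Dnmt1 +/-. Every mouse carried Six2-Cre, so the recombinase and at least 1 deleted Dnmt1 allele were shared by both groups, and no library of unmodified mice was compared. Six2 is active in nephron progenitors, and deletion of the conditional alleles is limited to cells in which Six2-Cre has been active and to their descendants. Dnmt1 copies DNA methylation onto the new strand at replication.

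Complex I, NADH dehydrogenase, passes electrons from NADH to ubiquinone, and complex IV, cytochrome c oxidase, passes them from cytochrome c to oxygen. Both are built from subunits of 2 genomes: the membrane core of complex I and the catalytic core of complex IV are made from mitochondrial DNA, and the remaining subunits from nuclear genes. The mitochondrial genome is transcribed from each strand as a long RNA, which is cut at the tRNAs that lie between most of its genes, and most of the resulting mRNAs are polyadenylated. Levels of a mitochondrial mRNA therefore depend on the number of genome copies, on transcription and on the stability of each mRNA, and bulk RNA-seq measures only their outcome.

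The genes lie close together, and neighbours share bases. Coordinates are those of RefSeq on GRCm38.p6, and the sequences are those of the GENCODE vM1 transcripts, whose coordinates were the same for all 13 mitochondrial mRNAs. Each annotated coding transcript is counted as an mRNA here, also where neighbouring genes may share an RNA molecule. The gene mt-Nd4l (chrM:9877-10173, forward strand) ends inside mt-Nd4 (chrM:10167-11544, forward strand). The last 30 bases of mt-Nd4l and the first 30 of mt-Nd4 are shown because a read across this junction holds bases of both genes. The capitals mark the 7 bases that the genes share.
mt-Nd4l 3′ end: gtccaaaatctcaacctactacaATGCTAA
mt-Nd4 5′ end: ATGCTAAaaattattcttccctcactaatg
The genes mt-Nd5 (chrM:11742-13565, forward strand) and mt-Nd6 (chrM:13552-14070, reverse strand) meet tail to tail. Their last 30 bases are shown because mt-Nd6 was the only mRNA of the 13 read from the other strand, and the capitals mark the 14 bases that are the reverse complement of each other.
mt-Nd5 3′ end: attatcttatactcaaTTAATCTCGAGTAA
mt-Nd6 3′ end: tttattattatcgagaTTACTCGAGATTAA
In mt-Co3 (chrM:8607-9390, forward strand) and mt-Nd4 the annotated gene stops 1 base after the last whole codon. Those last 30 bases are shown because the poly(A) tail is known to complete such stop codons, and the capital marks the single T.
mt-Co3 3′ end: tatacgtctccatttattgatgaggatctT
mt-Nd4 3′ end: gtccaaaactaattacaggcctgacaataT

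Totals of estimated counts were between 46741667 and 61585484 per library. Dnmt1 was 20.9, 18.6 and 14.9 CPM (counts scaled to library size with TMM factors) in the KO libraries, against 40.04, 52.4 and 51.7 CPM in the HET libraries. Its log2 fold change was -1.41 ± 0.15 (SE), with an adjusted p of 0.000264 in edgeR, and its counts cover the whole transcript, including any part the deletion left in place. All 10 nephron progenitor markers were detected, and their summed level was 934 to 1152 CPM in KO and 1365 to 1527 CPM in HET libraries. Markers of other cell types were also present. The 10 endothelium markers summed to 220, 90.8 and 49.1 CPM in the KO libraries, against 35.1 to 41.9 CPM in the HET libraries, and the 7 stroma markers to 756, 349 and 269 CPM, against 206 to 251 CPM. The 7 macrophage markers summed to 15.7 to 19.9 CPM in KO and 12.9 to 13.8 CPM in HET libraries, and 12 dissociation stress genes to 1677 to 2028 CPM in KO and 1200 to 1461 CPM in HET libraries. The summed ureteric bud (37.1 to 117 CPM in KO, 27.9 to 44.8 CPM in HET), proximal tubule (27.8 to 73.1 and 24.1 to 33.3 CPM), podocyte (34.8 to 53.2 and 50.8 to 62.7 CPM) and erythroid markers (262 to 579 and 335 to 768 CPM) overlapped between groups. No listed marker that was found was at 0 in all libraries. The part of these differences in the results on the mitochondrial genes was not tested. Y-linked genes were above 50 CPM in KO library 2 and in HET libraries 1 and 3, so each group held both sexes.

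The mitochondrial genes took a smaller share of the KO libraries than of the HET libraries. Together the 10 genes held 3.17%, 2.94% and 3.49% of all counts in the KO libraries, against 3.98%, 3.61% and 4.01% in the HET libraries. The highest KO library thus lay below the lowest HET library. The means were 3.20% ± 0.28 in KO and 3.87% ± 0.23 in HET libraries (SD, n = 3 each), a ratio of 0.827. The same order was seen for each of the 10 genes taken alone: in 10 of 10 the KO libraries did not overlap with the HET libraries and lay below them (exact permutation test, 2-sided p = 0.1 each, the smallest that 3 against 3 can give). Of all 16989 genes tested, 31.7% had KO shares entirely below the HET shares, so a lower share in KO was common in these libraries. Counting error was small beside the difference of the summed share, but not beside every gap between single libraries: for mt-Nd3, mt-Nd4l and mt-Co1 the 95% Wilson intervals of KO library 3 and HET library 2 overlapped. The interval of a single library's share was at most 0.151% of its value to either side for the sum of the 10 genes and at most 4.82% for mt-Nd3, the gene with the fewest counts; these intervals cover counting error only. In bulk RNA, fewer cells of a type and less RNA per cell cannot be told apart.

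Among the complex I genes, mt-Nd1, a subunit at the foot of the membrane arm, held 0.269%, 0.239% and 0.284% of counts in the KO libraries, against 0.339%, 0.302% and 0.332% in the HET libraries. The share of mt-Nd2, one of the antiporter-like subunits that take part in proton pumping, was 0.109%, 0.0977% and 0.115% in KO libraries, against 0.148%, 0.128% and 0.140% in HET libraries. For mt-Nd4, also antiporter-like, it was 0.235%, 0.218% and 0.266% in KO libraries, against 0.311%, 0.270% and 0.292% in HET libraries. The gap between the groups was narrow for mt-Nd4, whose highest KO library was 0.266% and lowest HET library 0.270%. The third antiporter-like subunit, mt-Nd5, held 0.255%, 0.221% and 0.287% in KO libraries, against 0.357%, 0.295% and 0.316% in HET libraries. The small membrane subunit mt-Nd4l held 0.0186%, 0.0176% and 0.0218% in KO libraries, against 0.0241%, 0.0222% and 0.0249% in HET libraries. The lowest share was that of mt-Nd3, which sits near the joint of the 2 arms of the complex: 0.00320%, 0.00290% and 0.00325% in KO libraries, against 0.00350%, 0.00328% and 0.00392% in HET libraries. The ratio of the means was lowest for mt-Nd6, at 0.762, with 0.0470%, 0.0413% and 0.0535% in KO libraries, against 0.0713%, 0.0552% and 0.0594% in HET libraries. HET library 1 was the highest of the 6 for mt-Nd6, and the gap between KO library 3 and HET library 2 was small.

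The 3 complex IV genes held more of each library than the 7 complex I genes did: 2.23%, 2.10% and 2.46% of counts in the KO libraries and 2.73%, 2.53% and 2.85% in the HET libraries, against 0.938%, 0.838% and 1.03% in KO and 1.25%, 1.08% and 1.17% in HET libraries for complex I. The share of mt-Co1, which holds the site where oxygen is reduced, was 0.696%, 0.700% and 0.820% in KO libraries, against 0.960%, 0.824% and 0.922% in HET libraries. That of mt-Co2, which accepts electrons from cytochrome c, was 0.477%, 0.427% and 0.508% in KO libraries, against 0.544%, 0.518% and 0.578% in HET libraries. The largest single share was that of mt-Co3, the third core subunit: 1.06%, 0.972% and 1.14% in KO libraries, against 1.22%, 1.19% and 1.35% in HET libraries. For mt-Co1 and mt-Co2, KO library 3 came close to HET library 2.

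**Figure D1:**
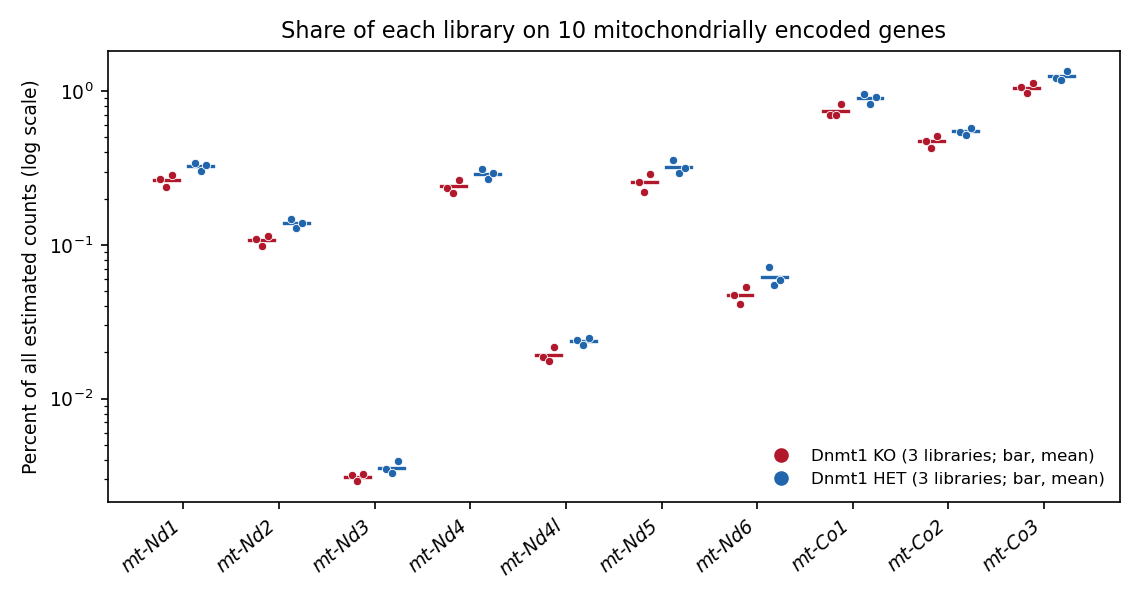
Share of all estimated counts of a library (percent, log scale) on each of the 10 mitochondrial genes, with 1 point per library and a bar at the mean of each group, Dnmt1 KO left of Dnmt1 HET. For every gene the 3 KO points lie below the 3 HET points, between 0.00290% (mt-Nd3) and 1.35% (mt-Co3).

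A share of all counts also depends on what else is in the library. The 271 genes that were called higher by over 16-fold held 7.68%, 8.91% and 8.79% of counts in the KO libraries, against 0.135%, 0.102% and 0.124% in the HET libraries. Of these, Ccrn4l, Slc38a6 and Wdr31, named after their values were seen, alone held 5.87%, 6.82% and 6.75% of counts in KO libraries, against 0.0810%, 0.0596% and 0.0742% in HET libraries. With the 271 genes left out of the total, a denominator chosen after seeing the data, the 10 mitochondrial genes held 3.43%, 3.22% and 3.83% of the remaining counts in KO libraries, against 3.99%, 3.61% and 4.02% in HET libraries. The groups then overlapped, since KO library 3 lay above HET library 2. The difference of the means was -0.376 percentage points on this denominator and -0.667 on all counts. The direction of this shift was fixed by the choice of genes. Leaving out genes picked as higher in KO could only raise the KO shares relative to the HET shares, and genes called lower stayed in.

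**Figure D2:**
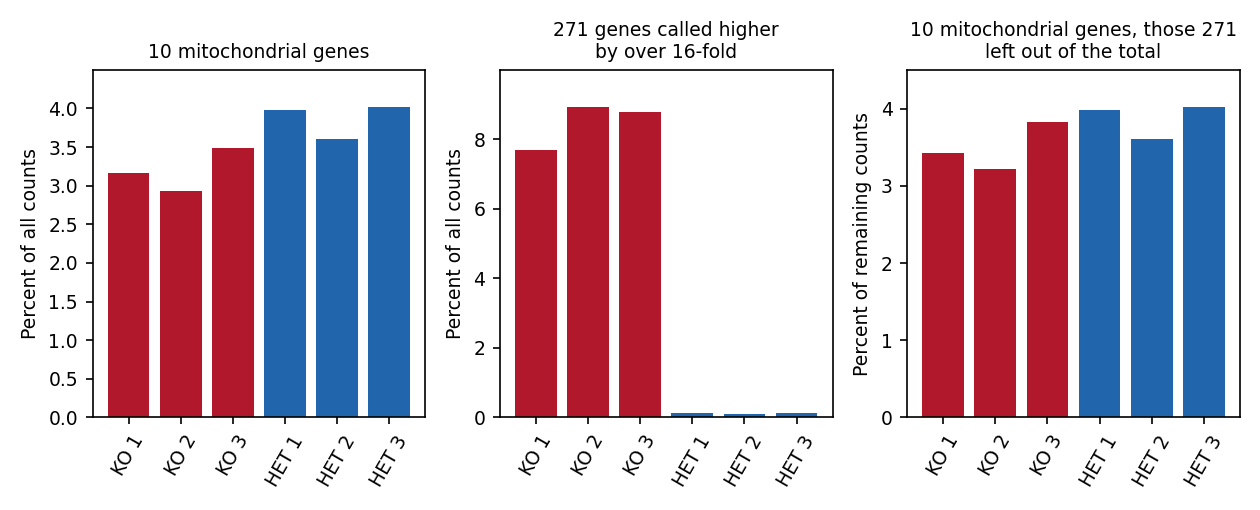
Bars give 1 library each, Dnmt1 KO left of Dnmt1 HET, as percent of all counts (left and middle) or of the counts left without the 271 genes (right); axes start at 0. The mitochondrial genes hold 2.94% to 3.49% of KO and 3.61% to 4.01% of HET libraries, the 271 genes 7.68% to 8.91% and 0.102% to 0.135%, and on the reduced total KO library 3 (3.83%) exceeds HET library 2 (3.61%).

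After composition normalisation no mitochondrial complex I or IV gene differed between the groups beyond the test's threshold. With TMM scaling, edgeR's quasi-likelihood test called 0 of 10 at a Benjamini-Hochberg adjusted p of 0.05, where it called 4.92% of all tested genes higher and 1.92% lower in KO. At an unadjusted p under 0.05 there was 1, mt-Nd2. DESeq2 and limma voom also called 0. All 10 log2 fold changes were below 0, and their median was -0.13, beside -0.003 over all genes tested; they were measured in the same 6 libraries and are not independent. The median was -0.07 without KO replicate 1, -0.08 without KO replicate 2 and -0.20 without KO replicate 3. In TMM-scaled CPM the groups overlapped for all 10 genes, whereas 14.2% of all genes had KO libraries entirely below the HET libraries and 14.8% entirely above.

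The lowest p was that of mt-Nd2, with 1194, 1161 and 1313 CPM in KO libraries, against 1489, 1312 and 1440 CPM in HET libraries. Its log2 fold change was -0.21 ± 0.09 (SE; 95% interval -0.41 to -0.01; edgeR, unadjusted p = 0.0383, adjusted p = 0.200). KO library 3 exceeded HET library 2 by less than 1 CPM. The most negative estimate was that of mt-Nd6, with 516, 490 and 612 CPM in KO libraries, against 719, 565 and 613 CPM in HET libraries, a log2 fold change of -0.23 ± 0.11 (SE; 95% interval -0.48 to 0.02; edgeR, adjusted p = 0.274). HET library 1 alone stood above the other 5. For mt-Nd1 the levels were 2954, 2844 and 3247 CPM in KO libraries, against 3418, 3088 and 3424 CPM in HET libraries, with a log2 fold change of -0.13 ± 0.09 (SE). For mt-Nd5 it was -0.18 ± 0.11, for mt-Nd4l -0.13 ± 0.09 and for mt-Nd4 -0.12 ± 0.10 (SE). The intervals of these genes reached 0.06 to 0.10 on the upper side and -0.33 to -0.42 on the lower side, which leaves room for no change and for a reduction of about that size.

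The estimate nearest to 0 was that of mt-Nd3. It had 35.0, 34.5 and 37.3 CPM in KO libraries, against 35.3, 33.6 and 40.4 CPM in HET libraries, a log2 fold change of -0.03 ± 0.10 (SE; edgeR, adjusted p = 0.875). The groups were interleaved, and the sign turned without KO replicate 2 (0.002) and without HET replicate 3 (0.05). In complex IV, mt-Co1 had 7625, 8310 and 9394 CPM in KO libraries, against 9669, 8432 and 9506 CPM in HET libraries (log2 fold change -0.12 ± 0.11, SE). The levels of mt-Co2 were 5231, 5070 and 5814 CPM in KO libraries, against 5480, 5298 and 5966 CPM in HET libraries (-0.06 ± 0.09). Those of mt-Co3 were 11601, 11540 and 13004 CPM in KO libraries, against 12318, 12153 and 13880 CPM in HET libraries (-0.09 ± 0.10). KO library 3 lay within the HET range for all 3. The other mitochondrial mRNAs, mt-Cytb of complex III and mt-Atp6 and mt-Atp8 of complex V, had log2 fold changes of -0.10 ± 0.10, -0.08 ± 0.10 and -0.19 ± 0.10 (SE), none called by edgeR.

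Scaled to library totals, which leaves composition uncorrected and moved the median of all genes to -0.17, 2 of the 10 genes were called lower and 0 higher, where 11.1% of all genes were called lower and 4.3% higher. These were mt-Nd2 (log2 fold change -0.37 ± 0.09, SE; edgeR, adjusted p = 0.0196) and mt-Nd1 (-0.30 ± 0.09; adjusted p = 0.0432). Over 21 alternative fits the adjusted p ranged up to 0.479 for mt-Nd2 and 0.742 for mt-Nd1, and no other fit called them. Relative to the median of all genes, the median of the 10 genes was -0.126 with library totals and -0.125 with TMM. Either scaling changes all genes of a library by the same factor, so the closeness of these values was built in. With TMM this relative median depended on single libraries, at -0.06 without KO replicate 1 and -0.21 without KO replicate 3.

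**Figure D3:**
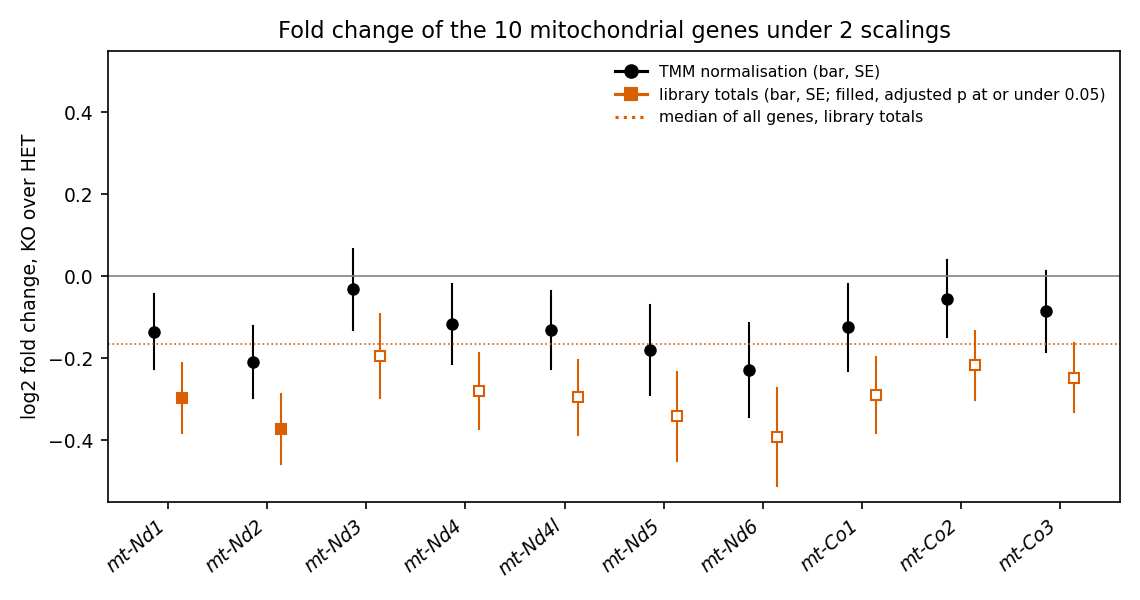
Fold change (log2, Dnmt1 KO over Dnmt1 HET) of the 10 mitochondrial genes with TMM (black circles) and with library totals (orange squares); bars are ± SE, filled squares have an adjusted p at or under 0.05, and the dotted line is the median of all genes with library totals. TMM estimates run from -0.23 to -0.03, and library totals place every gene lower, with mt-Nd1 and mt-Nd2 called.

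The makeup of the mitochondrial mRNA was compared next, since its total holds no counts assigned to nuclear genes. Within the counts of the 13 mitochondrial mRNAs, 9 of the 10 genes overlapped between groups. The exception was mt-Nd2, with 2.41%, 2.35% and 2.30% of mitochondrial mRNA counts in KO libraries, against 2.60%, 2.52% and 2.47% in HET libraries (exact permutation test, p = 0.1, adjusted over the 13 mRNAs 0.65). The estimated counts of mt-Nd2 and mt-Nd3 were not whole numbers in any library, as happens where reads are divided among transcripts. Those of every other gene of the 10 were whole in all 6 libraries. Which transcripts shared reads with mt-Nd2 or mt-Nd3 was not tested. The share of mt-Nd6 was 1.04%, 0.993% and 1.07% in KO libraries, against 1.26%, 1.09% and 1.05% in HET libraries. The share of mt-Co3, the largest, was 23.4%, 23.4% and 22.8% in KO libraries, against 21.5%, 23.4% and 23.8% in HET libraries. HET library 1 stood apart from the other 5, high for mt-Nd6 and low for mt-Co3. Of 4 ratios between mitochondrial genes that were examined, those of complex I to complex IV TPM (0.351, 0.341 and 0.355 in KO, 0.395, 0.360 and 0.349 in HET), of mt-Nd4 to mt-Nd4l TPM and of mt-Nd6 to the counts of the opposite strand overlapped. The ratio of mt-Nd5 to mt-Nd6 counts did not, at 5.43, 5.35 and 5.38 in KO libraries, against 5.001, 5.34 and 5.32 in HET libraries. KO library 2 and HET library 2 were nearly equal.

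Per length, the order of the mRNAs was nearly the same in every library. In TPM, which divides abundance by transcript length, mt-Co3 averaged 20261 ± 1552 in KO and 23395 ± 1612 in HET libraries (SD, n = 3 each). Of the 26567 paired genes, among which the mitochondrial rRNAs were not found, only 1 had a higher mean. Next among the 10 genes came mt-Co2, with 10777 ± 929 TPM in KO and 12191 ± 836 TPM in HET libraries, and mt-Co1, with 6358 ± 588 TPM in KO and 7566 ± 841 TPM in HET libraries. The complex I mRNAs followed. The highest was mt-Nd1, at 3965 ± 337 TPM in KO and 4744 ± 446 TPM in HET libraries, above mt-Nd4 in all 6 libraries. Below it, mt-Nd4, mt-Nd5, mt-Nd4l, mt-Nd6 and mt-Nd2 had means over all libraries of 2563, 2038, 1854, 1810 and 1648 TPM, and the ranges of neighbours from mt-Nd5 down to mt-Nd2 overlapped in both groups. The lowest, mt-Nd3, averaged 200 ± 12.3 TPM in KO and 224 ± 21.1 TPM in HET libraries, 7.77-fold below mt-Nd2. Both are the genes whose estimated counts were not whole numbers in any library. In TPM the KO libraries lay below the HET libraries without overlap for mt-Nd1 and mt-Nd2 and overlapped for the other 8; KO lay below HET for 28.7% of all genes averaging 1 TPM or more.

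**Figure D4:**
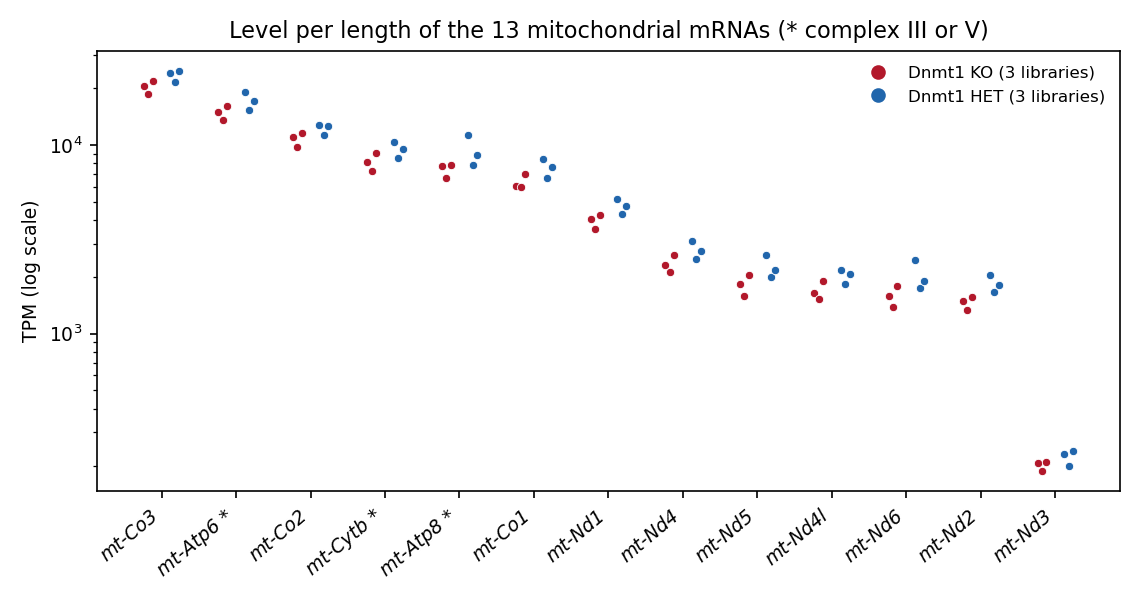
TPM (log scale) of the 13 mitochondrial mRNAs, 1 point per library, Dnmt1 KO left of Dnmt1 HET, ordered by mean; asterisks mark the complex III and V genes. The 3 complex IV mRNAs lie above all complex I mRNAs, and mt-Nd3 (means of 200 and 224 TPM) lies below the rest.

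Nuclear DNA holds copies of mitochondrial sequence, and a stretch found in both genomes does not show where a read came from. In a search added after the data were seen, in the NCBIM37 genome, which is not the build named for the files, every 31-base stretch of mt-Co2, mt-Co3 and mt-Nd4l, 99.1% of those of mt-Nd3, 63.9% of mt-Co1 and 63.0% of mt-Nd4 also occurred in a nuclear chromosome, against 17.1% for mt-Nd5, 13.6% for mt-Nd2, 7.36% for mt-Nd6 and 0% for mt-Nd1. The longest copy lay at chr1:24618374-24623023 (NCBIM37). The gene Gm10222, an annotated transcript that holds all 267 such stretches of mt-Nd4l, was at 0 in every library. Its length of 297 bases is that of mt-Nd4l, so such stretches cannot tell reads of these genes apart. The 0 therefore does not show whether Gm10222 was transcribed. The part of nuclear copies in the levels was not tested.

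With TMM the nuclear subunits of the same complexes had median fold changes above 0, where the mitochondrial ones lay below it; with library totals this held for nuclear complex IV subunits only. With TMM, edgeR called 0 of 7 nuclear core subunits of complex I, 0 of 29 accessory subunits and 0 of 11 nuclear subunits of complex IV, and their median log2 fold changes were 0.06, 0.12 and 0.17, beside -0.13 for the 7 mitochondrial complex I genes, -0.09 for the 3 mitochondrial complex IV genes and -0.003 for all genes. Estimates below 0 were found for 4 of the 29 accessory subunits and 1 of the 11 complex IV subunits. With library totals the median turned to -0.10 for the nuclear core subunits and -0.04 for the accessory subunits, and was 0.01 for complex IV. The difference between nuclear and mitochondrial subunits itself was not tested. Cox4i1, a subunit that binds regulatory nucleotides, had 881, 985 and 950 CPM in KO libraries, against 623, 773 and 775 CPM in HET libraries. The groups did not overlap, and its log2 fold change of 0.37 ± 0.10 (SE) missed the threshold (edgeR, adjusted p = 0.0553). The accessory subunit Ndufb9 had 212, 223 and 215 CPM in KO libraries, against 153, 189 and 174 CPM in HET libraries (0.33 ± 0.09, adjusted p = 0.0530 in edgeR). Counts on the 10 mitochondrial genes were 4.83, 4.52 and 5.48 times those on the 47 nuclear subunits in KO libraries, against 6.77, 5.22 and 5.93 times in HET libraries, a ratio computed after the data were seen. The groups overlapped, and HET library 1 was the highest.

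With TMM the other respiratory complexes gave 1 call. Of complex II 0 of 4, of complex III 0 of 9 and of complex V 1 of 15 nuclear subunits were called, with medians of 0.03, 0.13 and 0.14, which turned to -0.14, -0.04 and -0.03 with library totals. Under library totals 1 complex II subunit was called lower, and 0 of complex III and 0 of complex V were called. The call with TMM was Atp5k, a small subunit of the membrane part of ATP synthase, with 91.1, 88.1 and 84.7 CPM in KO libraries, against 54.8, 72.4 and 69.9 CPM in HET libraries (log2 fold change 0.42 ± 0.11, SE; edgeR, adjusted p = 0.0456). It was lost in 13 of 21 alternatives, leaving out any single library among them (adjusted p over the alternatives 0.00549 to 0.162). Assembly factors gave 0 of 11 calls for complex I (median 0.001) and 0 of 13 for complex IV (median -0.05). With library totals 1 and 2 were called lower, with medians of -0.16 and -0.22. Over all genes, library totals called 11.1% lower, with a median of -0.17.

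Of the 7 complex IV subunit isoforms that are restricted to certain tissues, 5 were tested and 2 were called higher. Over all tested genes, 4.92% were called higher. These 2 isoforms passed the filter on low counts only through the KO libraries. A fall in KO could therefore not have been called for them. Cox7b2, an isoform best known from the testis, had 183, 160 and 183 counts in the KO libraries, against 1, 2 and 1 in the HET libraries, 136-fold more (95% exact counting interval 53.0 to 503; edgeR, adjusted p = 1.93e-06). Cox8c, also a testis isoform, had 29, 32 and 29 counts in KO libraries, against 0, 2 and 1 in HET libraries, 31.1-fold more (95% exact counting interval 10.3 to 154; edgeR, adjusted p = 0.00209). Even in KO libraries Cox7b2 reached 3.09 to 3.88 CPM, beside 881 to 985 CPM of Cox4i1. Cox6b2, another isoform of the testis, named after its values were seen, had means of 9.34 ± 2.45 CPM in KO and 11.8 ± 0.28 CPM in HET libraries (SD, n = 3 each) and was not called (edgeR, adjusted p = 0.340). Cox7b2 was called in 21 of 21 alternatives.

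With TMM, genes that act on mitochondrial DNA and RNA were mostly not called. Of 13 transcription and replication genes 0 were called, with a median of -0.13 and 10 of 13 estimates below 0; with library totals 2 were called lower and the median was -0.29. Polg2, the accessory subunit of the mitochondrial DNA polymerase, had 13.02, 11.2 and 14.7 CPM in KO libraries, against 18.3, 16.6 and 16.3 CPM in HET libraries, and Top1mt, the mitochondrial topoisomerase, averaged 6.17 ± 0.96 CPM in KO and 8.70 ± 1.95 CPM in HET libraries (SD, n = 3 each; edgeR, adjusted p = 0.117 for Polg2 and 0.197 for Top1mt). Of 19 RNA processing and stability genes 1 was called higher (median -0.08). With library totals 1 was called higher and 5 lower, and the median was -0.25. Over all genes, that scaling called 11.1% lower and 4.3% higher, with a median of -0.17. The gene called with TMM was Pnpt1, the polynucleotide phosphorylase that takes part in degrading mitochondrial RNA, which rose to 99.6, 97.0 and 105 CPM in KO libraries, against 66.4, 54.8 and 52.1 CPM in HET libraries (log2 fold change 0.80 ± 0.10, SE; edgeR, adjusted p = 0.000786). It was called in 19 of 21 alternatives, including all 6 that left out a library, and missed the threshold in 2 fits on TPM (adjusted p up to 0.0801). Lrpprc, which protects mitochondrial mRNAs from decay, had 42.8, 43.5 and 44.99 CPM in KO libraries, against 52.4, 50.5 and 56.5 CPM in HET libraries (-0.28 ± 0.08, SE; edgeR, adjusted p = 0.0822, and 0.00935 with library totals; over 21 alternatives 0.00935 to 0.238). Its groups did not overlap. The 8 biogenesis regulators gave 0 calls with either scaling (median -0.05 with TMM and -0.21 with library totals). Nrf1, a transcription factor of nuclear genes for respiration, averaged 83.5 ± 5.56 CPM in KO and 72.8 ± 3.84 CPM in HET libraries (edgeR, adjusted p = 0.209).

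**Figure D5:**
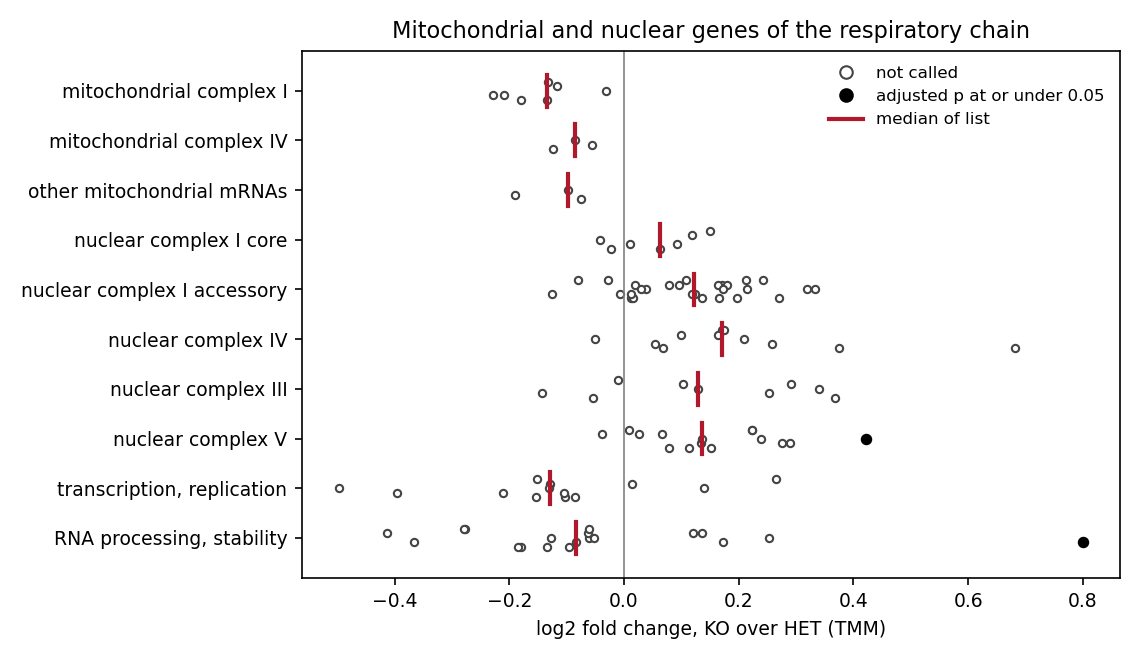
Each circle is a gene, placed by its log2 fold change (Dnmt1 KO over Dnmt1 HET, TMM); filled circles passed the test and red bars are medians of the lists. The mitochondrial genes lie at or below -0.03, most nuclear subunits above 0, and the 2 filled points are Atp5k (0.42) and Pnpt1 (0.80); with library totals the medians of all nuclear subunit lists shown except that of complex IV lie below 0.

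Across the 6 libraries the 10 genes varied together. Pearson's r between the log2 CPM of pairs ranged between 0.348 (mt-Nd3 with mt-Nd6) and 0.988 (mt-Nd5 with mt-Nd6), with a median of 0.855 over 45 pairs; the points share libraries and scaling factors, so this is a description. The nuclear genes whose log2 CPM followed the mean of the 10 genes most closely, out of 9073 that code for proteins and average 10 CPM or more, were Pcnt (r = 0.982), Dcun1d2 (0.974), Tbc1d8 (0.970), Usp53 (0.969) and Fads1 (0.963), each over 6 libraries. None of these 5 was called between KO and HET by edgeR.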

How the data were processed

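RNA-seq was compared between 3 Dnmt1 KO and 3 Dnmt1 HET libraries, grouped by title. Per the labels' protocols, 50 ng of RNA per sample entered ultra low input sequencing on a HiSeq2000. The authors deposited estimated counts (expected counts), TPM values and effective transcript lengths per transcript. Per the submitters' processing notes, kallisto and mm10 were used; its version, the annotation release, read length and strandedness are not stated there or in the labels. Without strandedness, the 14 bases shared by mt-Nd5 and mt-Nd6 on opposite strands do not by themselves show which gene was read. The estimated counts of both genes were whole numbers in all 6 libraries. The labels do not say whether libraries came from separate embryos, and all p-values rest on the spread among these 6 libraries, which may be technical.

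Of 96626 transcripts, 74519 were paired with 26567 genes by GENCODE vM1; the other 22107 were left out, and 92.4% to 92.8% of counts were kept. Mitochondrial rRNAs were not analysed here. Estimated counts were summed per gene, rounded, and tested with edgeR 4.0.16 (quasi-likelihood, TMM, default filterByExpr, robust; R 4.3.3), adjusting by Benjamini-Hochberg over 16989 genes. At the lowest and highest totals, 3 counts were 0.0642 and 0.0487 CPM. Shares use all deposited counts. Exact permutation tests were 2-sided. The test was checked on simulated data. Alternatives were DESeq2 1.42.0, limma 3.58.1 (voom, and log2(TPM + 1) and log2(TPM + 0.1) of deposited TPM), other scalings and filters, length offsets, a replicate block, sex and each library left out. Every pair of libraries differed by more than sampling noise. The genes and the 26 lists were chosen with earlier results of these data known. Named genes are the 10 genes, Dnmt1, the other mitochondrial mRNAs, the genes with the smallest p in a list, and the 5 nearest in r; other names are marked.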

Additional observations from a re-analysis of the deposited data

How the results depend on the processing

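With library totals, 2 of the 10 genes were called lower (mt-Nd2 and mt-Nd1) in place of 0; the 20 other fits called 0. The difference in the share of all counts was -0.667 percentage points and became -0.376 when genes called higher by over 16-fold were left out of the denominator, an alternative chosen after seeing the data. The direction of that shift was fixed by the choice of genes. The sign of mt-Nd3 turned without KO replicate 2 (0.00164) and without HET replicate 3 (0.0489); leaving out each library in turn gave -0.0878 to 0.0489. The other 9 genes stayed below 0 in all 21 fits. Over the fits that left out 1 library, the lower calls among the 10 genes stayed at 0, and the Dnmt1 log2 fold change ran between -1.52 and -1.29. Over all genes, 836 were called higher and 327 lower; counts that differed most from these were 731 higher and 1883 lower with library totals, 1315 and 624 with DESeq2, 415 and 468 with limma on log2(TPM + 1), 370 and 322 on log2(TPM + 0.1), 493 and 383 on log2(TPM + 1) without a filter, 526 and 116 without KO replicate 2, and, for lower genes, 162 with sex as a covariate, 170 without HET replicate 2 and 171 without HET replicate 3. Expression showed no pairing by replicate number (r between same-numbered libraries -0.07, -0.03 and -0.05, and -0.11 to 0.13 between the others). Whether same-numbered libraries were related in origin or handling is not known from this. With the replicate block 707 genes were higher and 265 lower, and 0 of the 10 were called. With 3 libraries a group, changes as small as those estimated for these genes could not be separated from no change.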

Other observations

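HET library 1 differed from the other HET libraries in the balance of the 2 genomes. The nuclear accessory subunits of complex I summed to 2833 TMM-scaled CPM in HET library 1, 3425 in HET library 2 and 3394 in HET library 3, and the nuclear subunits of complex IV to 1899, 2291 and 2287 CPM. HET library 1 also had the highest count of mitochondrial genes per nuclear complex I and IV subunit count, 6.77, and the highest mt-Nd6 level, 719 CPM. In the KO libraries the accessory subunits summed to 3478 to 3676 CPM and the complex IV subunits to 2477 to 2619 CPM, above all 3 HET libraries for both lists after TMM scaling. As a share of all counts, the nuclear complex I and IV subunits together overlapped between the groups, with 0.656%, 0.650% and 0.637% in KO libraries and 0.588%, 0.690% and 0.676% in HET libraries. These sums carry no test, and were chosen after their values were seen.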
